A study of Mus musculus with 8 samples.

Results

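The genes described here encode chemokines and their receptors. They were taken from the count table by symbol, as every gene named Ccl, Ccr, Cxcl or Cxcr followed by a number, with 2 genes left out that are not analysed here. This gave 49 of the 24091 genes in the table, namely 21 CC ligands, 12 CXC ligands, 10 CC receptors and 6 CXC receptors. RNA was measured in islets of 4 control and 4 mutant samples of mice aged 6 weeks on a C57BL/6 background. Control mice were labelled wild-type, and the mutants carried Ngn3-Cre and a deletion of *Itgb1*, which encodes integrin β1, and are called *Itgb1*-deleted below. Ngn3-Cre acts in the endocrine progenitors of the pancreas, so blood vessels, mesenchyme, ducts and immune cells of the islet keep an intact *Itgb1*, while other Ngn3-expressing cells, such as those of the gut, can also lose it. Islets were released with collagenase, picked under a microscope and, by the isolation protocol of the study, left overnight in medium before use. The comparison asks whether the loss of integrin β1 from endocrine cells goes with a different level of these messengers in the islet.

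Chemokines are small secreted proteins that guide leukocytes along a gradient toward the tissue that makes them. CC and CXC chemokines differ in the spacing of their first cysteines and bind receptors of the Ccr and Cxcr families, which couple to inhibitory G proteins. Many are hardly made at rest and are induced within hours by interleukin-1, tumour necrosis factor or interferon through NF-κB, AP-1 and interferon-activated factors, whereas homeostatic chemokines are made steadily by epithelia, stroma and lymphoid tissue. In islets they are known as products of β-cells, stroma and macrophages under cytokine stress, and *Ccl2* and the neutrophil attractants are also known to appear in freshly isolated islets.

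The promoters of the neutrophil attractants and of *Cxcl10* are shown first, because these inducible ligands varied widely from library to library. The RefSeq table of GRCm38.p6 held promoter windows for 35 of the 49 genes, and the 250 bases before the start site of each were searched on both strands for 3 motifs. These were the NF-κB motif (GGGA, then any 2 bases, then TTCC), the interferon response motif (GAAA, any 2 bases, GAAA) and the AP-1 motif (TGANTCA). The 35 genes had 42 windows, and a gene was counted if any of its windows matched, whereas shares of all windows count single windows. The NF-κB motif lay in 6 of the 35 genes (17.1%), namely *Cxcl1*, *Cxcl2*, *Cxcl3*, *Cxcl10*, *Ccl1* and *Ccr3*, against 1.21% of all 32851 windows of this length. The interferon motif lay in *Ccl19*, *Cxcl10* and *Cxcl14* (2.98% of all windows) and the AP-1 motif in 6 (6.75% of all windows). Capitals mark the matched letters below. In *Cxcl1*, *Cxcl2* and *Cxcl3* the capitals are 1 stretch that matched the NF-κB motif on both strands with 9 bases shared between both matches. The first of them begins 71 bases before the start in *Cxcl1*, 97 in *Cxcl2* and 73 in *Cxcl3*. The window of *Cxcl10* holds all 3 motifs, which do not overlap, with the interferon motif first, the NF-κB motif second and the AP-1 motif nearest to the start. The windows are chr5:90890995-90891244 (plus strand) for *Cxcl1*, chr5:90903649-90903898 (plus) for *Cxcl2*, chr5:90785851-90786100 (plus) for *Cxcl3* and chr5:92348890-92349139 (minus) for *Cxcl10*, written 5′ to 3′ along the gene. A match describes letters and does not show that a factor binds there.
Cxcl1: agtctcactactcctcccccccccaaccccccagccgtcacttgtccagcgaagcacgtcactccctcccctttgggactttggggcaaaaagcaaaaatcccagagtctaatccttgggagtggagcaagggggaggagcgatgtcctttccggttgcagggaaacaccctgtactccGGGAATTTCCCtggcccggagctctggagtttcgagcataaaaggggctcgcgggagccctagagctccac
Cxcl2: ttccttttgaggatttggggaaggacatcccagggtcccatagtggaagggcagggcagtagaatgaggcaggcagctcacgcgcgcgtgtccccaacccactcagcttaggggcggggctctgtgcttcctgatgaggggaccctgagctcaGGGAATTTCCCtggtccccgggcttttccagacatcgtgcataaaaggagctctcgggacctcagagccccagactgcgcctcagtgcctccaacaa
Cxcl3: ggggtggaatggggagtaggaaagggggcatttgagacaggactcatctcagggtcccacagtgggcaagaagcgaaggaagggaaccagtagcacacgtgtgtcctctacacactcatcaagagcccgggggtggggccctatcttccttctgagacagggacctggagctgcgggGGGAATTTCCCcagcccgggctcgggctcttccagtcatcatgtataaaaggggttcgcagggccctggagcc
Cxcl10: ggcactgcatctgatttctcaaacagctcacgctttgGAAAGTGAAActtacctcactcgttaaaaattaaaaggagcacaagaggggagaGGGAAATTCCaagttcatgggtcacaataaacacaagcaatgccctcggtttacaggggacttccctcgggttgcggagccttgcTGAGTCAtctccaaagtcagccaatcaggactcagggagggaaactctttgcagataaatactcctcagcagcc

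Levels are given as CPM, which are counts relative to library size after TMM scaling, a method that sets libraries to a common level over most genes. Libraries held 35.1 to 67.6 M counts, with 62.2 to 67.6 M in control 2, control 3 and mutant 3 and 35.1 to 41.0 M in the other 5. *Itgb1* was at 315 to 432 CPM in controls and at 193 to 266 CPM in mutants (log2 fold change -0.75, SE 0.15, edgeR's quasi-likelihood test, adjusted p = 0.233), so the groups did not overlap and differed in the direction of the labels. Control 3 and mutant 3 came from females by *Xist* and the others from males, and acinar markers summed to 3555 and 11094 CPM in controls 2 and 3 against 20.1 to 762 CPM in the other 6. Markers of islet endocrine cells summed to 176838 and 286574 CPM in controls 2 and 3, against 48927 to 74896 CPM in the other 6. Of the 7 endocrine markers, 0 had a fitted log2 fold change above 0 (50.2% of all genes). Their median was -1.17, and -0.24 within the 5 libraries under 50 M counts. The series calls the libraries biological replicates without saying that each is a separate mouse, and the p-values therefore describe scatter among libraries that may be partly technical. In bulk RNA, fewer cells of a type and less RNA per cell cannot be told apart, which holds for every level below.

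Islets held far more message for ligands than for receptors. Levels of different genes were compared per length, as RPKM, which is CPM divided by the gene length of the count table in kilobases. Averaged over the 8 libraries, *Cxcl1* was highest (97.8 RPKM), followed by *Ccl2* (65.4), *Cxcl10* (38.9) and *Cxcr4* (25.7). The place of *Cxcl10* came from control 2, without which its mean was 15.1 RPKM, below that of *Cxcr4*, *Cxcl5* and *Ccl7*. *Cxcr4*, known for holding progenitors and leukocytes near stroma that makes its ligand, was the only receptor above 10 RPKM, and the next receptor, *Ccr7*, was at 2.13 RPKM. The receptors of the leading ligands were near the detection limit. *Cxcr2*, the receptor of *Cxcl1*, *Cxcl2*, *Cxcl3* and *Cxcl5*, had 2 counts in all, both in mutant 4. *Cxcr1* had 0 in every library, where 3 counts would be 0.0443 to 0.0778 CPM. *Ccr2*, the receptor of *Ccl2* and *Ccl7*, averaged 0.0586 RPKM with 1 to 24 counts per library, and *Cxcr3*, the receptor of *Cxcl9* and *Cxcl10*, averaged 0.0265 RPKM.

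**Figure D1:**
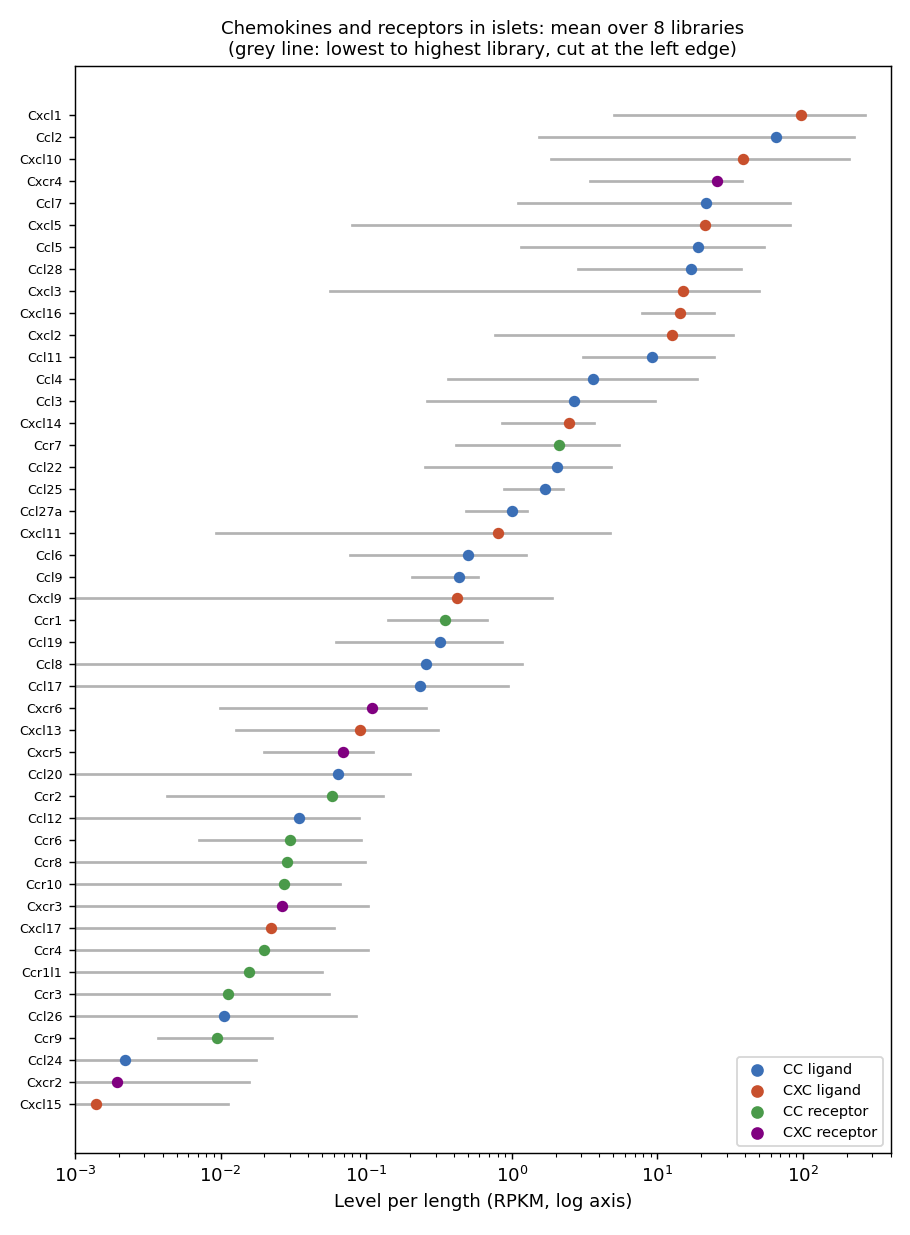
Level per length of the 46 detected chemokine and receptor genes, in RPKM on a log axis. Points are means over 8 libraries, grey lines run from the lowest to the highest library, and colours give the 4 classes; ligands fill the upper range and *Cxcr4* is the only receptor above 10.

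Of the 49 genes, 24 passed the low count filter and were tested, namely 12 CC ligands, 8 CXC ligands, 2 CC receptors and 2 CXC receptors. With limits of 0.05 on the adjusted p and 2 on the fold change, edgeR's quasi-likelihood test called 0 of the 24, and 0% of all 15233 genes tested. The smallest adjusted p among them was 0.301, for *Ccl6*. DESeq2 called 2 of 23 (1.22% of all genes with a p), which were *Ccl6*, higher in mutants (adjusted p = 0.0191), and *Ccl4*, lower in mutants (adjusted p = 0.0406), and edgeR's likelihood ratio test called *Ccl6* alone (0.597% of all genes). At an unadjusted p below 0.05, 4 of the 24 were higher in mutants (*Ccl6*, *Cxcl14*, *Ccl11* and *Ccl9*; 6.8% of all genes) and 2 were lower (*Ccl4* and *Ccl3*; 7.19% of all genes). Every mutant library lay above every control for 2 of the 24, *Ccl6* and *Ccl9* (4.4% of all genes), and below for 0 (3.8% of all genes). The fitted log2 fold change was above 0 for 18 of the 24 (50.2% of all genes), with a median of 0.79, against 0.00 over all genes tested. With total counts in place of TMM the median over all genes moved to 0.15 and that of the 24 to 0.95.

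Single libraries set much of this picture. The 49 genes together took 345, 672, 85.4 and 389 CPM in control libraries 1 to 4 and 621, 509.6, 141 and 1164 CPM in mutant libraries 1 to 4 (values of single libraries are given in this order throughout). Mutant 4 was the highest library for 12 of the 24 tested genes (50%, against 11.4% of all genes tested), and control 3 was the lowest for 15 (62.5%, against 21.0%). Control 3 and mutant 3, both female and both over 50 M counts, held the least of all libraries. Control 2, male and also over 50 M counts, held more than any library but mutant 4.

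**Figure D2:**
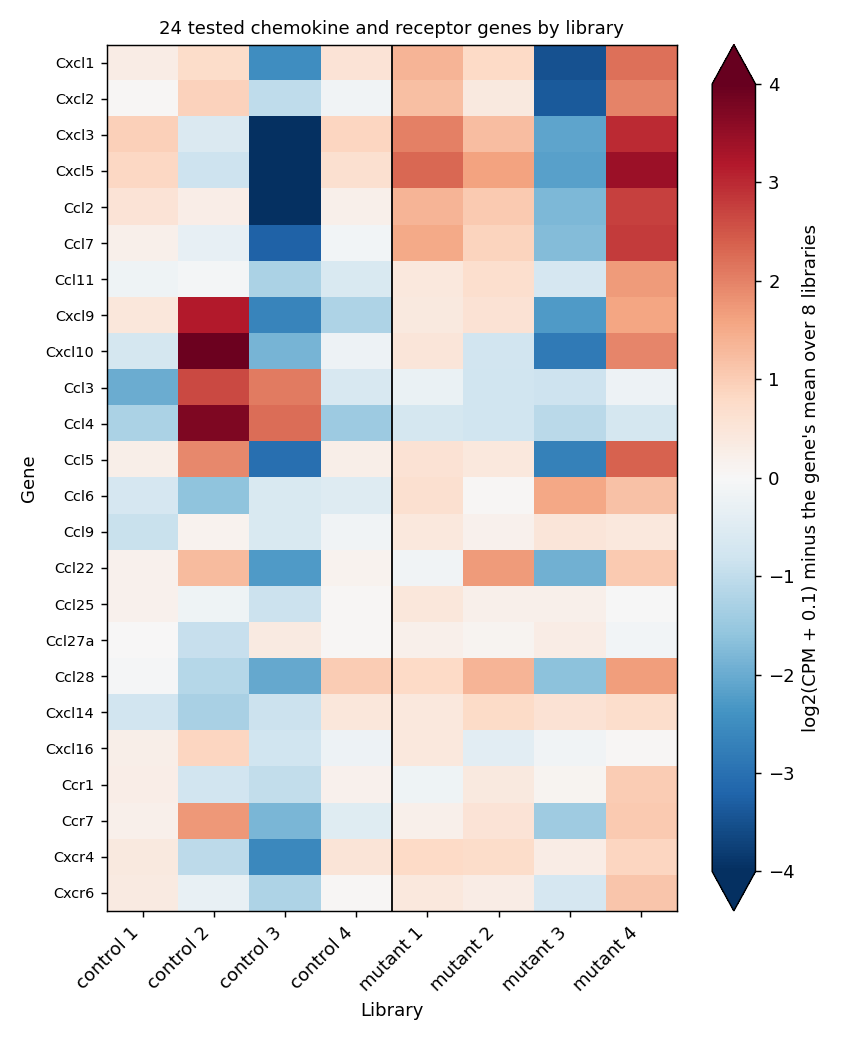
Heat map of the 24 tested genes (vertical) in 8 libraries (horizontal), with ligands grouped by receptor and receptors at the bottom. Colour is log2(CPM + 0.1) minus the mean of the gene over the 8 libraries; mutant 4 is mostly red, control 3 mostly blue, and control 2 is most red for *Cxcl9*, *Cxcl10*, *Ccl3*, *Ccl4*, *Ccl5* and *Ccr7*.

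The neutrophil attractants *Cxcl1*, *Cxcl2*, *Cxcl3* and *Cxcl5* signal through CXCR2 and lie in 1 cluster on chromosome 5 of GRCm38 between 90759298 and 90905938. *Cxcl1* measured 67.1, 91.2, 9.58 and 79.4 CPM in the control libraries and 139, 95.4, 4.73 and 253 CPM in the mutant ones. *Cxcl2* measured 15.9, 29.1, 7.58 and 14.1 CPM in the control libraries and 35.9, 20.2, 1.40 and 61.0 CPM in the mutant ones. *Cxcl5* measured 21.8, 6.90, 0.133 and 19.1 CPM in the control libraries and 60.5, 37.8, 2.64 and 134 CPM in the mutant ones. For each of these 3 genes mutant 4 was highest, and the groups overlapped, with mutant 3 below at least 3 of the 4 controls. *Cxcl3* followed the order of *Cxcl5*, from 0.0570 CPM in control 3, which is 3 counts, to 51.0 CPM in mutant 4. The log2 fold changes were 0.99 (SE 0.96) for *Cxcl1*, 0.83 (SE 0.84) for *Cxcl2*, 1.72 (SE 1.18) for *Cxcl3* and 2.29 (SE 1.25) for *Cxcl5*, with adjusted p of 0.417 to 0.643 from edgeR's test, so no difference passed the test. Without mutant 4 they were 0.37, 0.20, 0.99 and 1.49. The promoters of *Cxcl1*, *Cxcl2* and *Cxcl3* printed above share the NF-κB letters. No window for *Cxcl5* was in the table.

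The sum of the neutrophil markers was also highest in mutant 4. The 6 markers summed to 0.241 to 0.882 CPM in controls and 0.561 to 9.01 CPM in mutants. Most of the sum in mutant 4 was *S100a9* (6.499 CPM) and *S100a8* (1.73 CPM). *Csf3r* (0.664 CPM) and *Mpo* (0.119 CPM) were low in mutant 4, though highest there. *Ly6g* was at 0 in mutant 4, and *Retnlg* was at 0 everywhere. The marker sums did not follow the order of the ligands in all libraries. Control 2 had the lowest sum and the highest *Cxcl1* and *Cxcl2* of the controls. Mutant 3, lowest for both ligands, had a sum above controls 1 to 3. Of these markers 2 were tested, and *S100a9*, a calcium-binding protein of neutrophils and other myeloid cells, was higher at an unadjusted p below 0.05 (log2 fold change 3.71, SE 1.23, 6.8% of all genes higher). Their part in the ligand levels was not tested.

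The monocyte attractants *Ccl2* and *Ccl7*, ligands of CCR2, lie next to each other on chromosome 11 with the eosinophil attractant *Ccl11*, between 82035577 and 82062955. *Ccl2* measured 39.6, 32.4, 1.24 and 31.4 CPM in the control libraries and 70.3, 56.0, 7.76 and 181 CPM in the mutant ones. *Ccl7* measured 10.5, 7.24, 0.874 and 8.54 CPM in the control libraries and 26.5, 17.0, 2.69 and 64.8 CPM in the mutant ones. For both, mutants 1, 2 and 4 lay above all controls and mutant 3 lay above control 3 only. The log2 fold change was 1.59 (SE 1.01, adjusted p = 0.469) for *Ccl2* and 2.03 (SE 0.92, adjusted p = 0.362) for *Ccl7* by edgeR's test, and 0.77 and 1.18 without mutant 4. *Ccl11*, eotaxin, which acts through CCR3, measured 7.14, 7.57, 3.33 and 5.27 CPM in the control libraries and 10.9, 12.8, 5.07 and 26.3 CPM in the mutant ones. The fitted log2 difference was 1.24 (SE 0.47), with an unadjusted p below 0.05 and an adjusted p of 0.333, and again only mutant 3 lay among the controls.

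**Figure D3:**
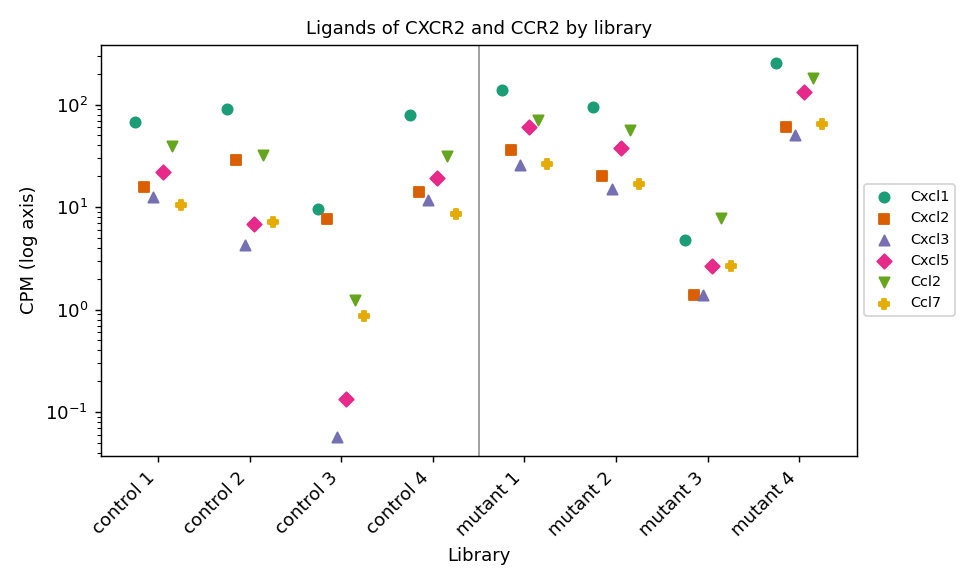
CPM on a log axis of the CXCR2 ligands *Cxcl1*, *Cxcl2*, *Cxcl3* and *Cxcl5* and the CCR2 ligands *Ccl2* and *Ccl7* (marker shapes) in each of 8 libraries, controls left of the line and mutants right. All 6 genes are highest in mutant 4 and 4 of them are lowest in control 3; *Cxcl1* and *Cxcl2* are lowest in mutant 3.

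Markers of fibroblasts and pericytes, which can make *Ccl2*, *Ccl7*, *Ccl11* and *Cxcl14*, mostly differed in the same direction. The 7 markers summed to 318 to 472 CPM in controls and 645 to 861 CPM in mutants, without overlap. Of the 7, 6 had a higher fitted value, 5 of them at an unadjusted p below 0.05 (6.8% of all genes). The other marker, *Rgs5*, had a lower one (log2 fold change -0.26, SE 0.43). Duct markers mostly differed in this direction too. The 5 markers summed to 225 to 530 CPM in controls and 590 to 746 CPM in mutants, without overlap. Of the 5, 4 had a higher fitted value, 3 of them at an unadjusted p below 0.05 (6.8% of all genes). *Cftr* had a lower one (log2 fold change -1.03, SE 0.66). The part of either list of markers in the chemokine levels was not tested. *Cxcl14*, a homeostatic chemokine of epithelia and stroma whose receptor is debated, measured 2.26, 1.56, 2.13 and 5.48 CPM in the control libraries and 5.29, 6.71, 6.00 and 6.43 CPM in the mutant ones. All mutants lay above controls 1 to 3, and control 4 lay above mutant 1. The fitted log2 difference was 1.10 (SE 0.38), with an unadjusted p below 0.05 and an adjusted p of 0.333 from edgeR's test, and 1.04 (SE 0.33) with a term for library set.

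The CCR1 ligands *Ccl6* and *Ccl9*, made mainly by macrophages and other myeloid cells of mice, were higher in every mutant library than in any control. *Ccl6* measured 0.311, 0.111, 0.323 and 0.358 CPM in the control libraries and 0.904, 0.577, 1.80 and 1.35 CPM in the mutant ones, from 6 to 17 counts in controls and 24 to 122 in mutants. Its log2 fold change of 2.10 (SE 0.48) had an adjusted p of 0.301 from edgeR's test and stayed at 2.19 (SE 0.47) with a term for library set. *Ccl9* measured 0.623, 1.35, 0.779 and 1.10 CPM in the control libraries and 1.67, 1.40, 1.77 and 1.68 CPM in the mutant ones. The gap between mutant 2 and control 2 was small, and the log2 fold change was 0.75 (SE 0.29, adjusted p = 0.333). The macrophage markers were mixed in direction. All 10 were tested, and their sums were 35.5 to 88.4 CPM in controls and 43.8 to 93.3 CPM in mutants. A higher fitted value was found for 3 and a lower one for 7. *Cd68*, a lysosomal protein, was the 1 marker at an unadjusted p below 0.05 (log2 fold change 0.95, SE 0.31, 6.8% of all genes higher).

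*Ccl3*, *Ccl4* and *Ccl5*, inflammatory attractants of T cells and monocytes through CCR1, lie in the same cluster of chromosome 11 as *Ccl6* and *Ccl9*, between 83525779 and 83664683. *Ccl4* measured 0.285, 12.3, 4.28 and 0.238 CPM in the control libraries and 0.475, 0.433, 0.340 and 0.474 CPM in the mutant ones. *Ccl3* measured 0.208, 7.64, 5.11 and 0.691 CPM in the control libraries and 0.927, 0.602, 0.591 and 0.972 CPM in the mutant ones. The high values were those of controls 2 and 3, and controls 1 and 4 lay within or below the range of the mutants. The log2 fold change was -3.34 (SE 1.15) for *Ccl4* and -2.16 (SE 0.91) for *Ccl3*, with adjusted p of 0.333 and 0.346 from edgeR's test, and without control 2 it was -1.94 and -1.42. Within the 5 libraries under 50 M counts both were above 0 (0.81, SE 0.36, for *Ccl4* and 0.86, SE 0.51, for *Ccl3*). *Ccl5* ran from 0.608 CPM in control 3 to 28.8 CPM in mutant 4, with 21.2 CPM in control 2, and its log2 fold change was 0.36 (SE 1.06). Controls 2 and 3 were also the libraries with the high acinar and endocrine sums given above, whose part in these levels was not tested.

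The CXCR3 ligands *Cxcl9* and *Cxcl10*, interferon-induced attractants of activated T cells and NK cells, were dominated by control 2. *Cxcl10* measured 12.5, 312, 5.55 and 17.9 CPM in the control libraries and 28.8, 12.2, 2.81 and 80.3 CPM in the mutant ones. *Cxcl9* was at 5.51 CPM in control 2, at 0 in control 3 and at 1.76 CPM in mutant 4, and *Cxcl11*, below the filter, had 411 of its 526 counts in control 2. Log2 fold changes were -1.49 (SE 1.35) for *Cxcl10* and -1.01 (SE 1.31) for *Cxcl9*, and without control 2 they were 1.37 and 1.49. T cell markers summed to 2.57 to 3.95 CPM in controls and 3.03 to 5.12 CPM in mutants, with 1 of 7 tested (*Lck*). Most of each sum was *Lck*, at 2.44 to 3.82 CPM in controls and 2.32 to 4.06 CPM in mutants. The other T cell markers reached at most 0.522 CPM (*Cd4* in mutant 4). Of the NK cell markers *Ncr1* was at 0 in all libraries.

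None of the remaining tested ligands had an unadjusted p below 0.05. *Ccl28*, a mucosal chemokine that attracts plasma cells through CCR10, measured 42.5, 19.7, 10.6 and 89.5 CPM in the control libraries and 76.1, 113, 14.0 and 141 CPM in the mutant ones, with a log2 fold change of 1.09 (SE 0.76, adjusted p = 0.505). *Cxcl16*, a membrane-bound ligand of CXCR6 and scavenger receptor, measured 40.7, 63.0, 20.1 and 30.5 CPM in the control libraries and 46.2, 25.9, 31.7 and 35.6 CPM in the mutant ones, with overlap and a log2 fold change of -0.15 (SE 0.33). The log2 fold change was 0.42 (SE 0.84) for *Ccl22*, the dendritic cell ligand of CCR4. It was 0.38 (SE 0.26) for *Ccl25*, the gut and thymus ligand of CCR9, and 0.21 (SE 0.31) for *Ccl27a*, the skin ligand of CCR10. Reads of *Ccl27a* could be shared with its near-identical copy *Ccl27b*, listed at 0 in every library, so its level is uncertain. The receptors of these ligands were hardly detected, with at most 21 counts for *Cxcr6*, 12 for *Ccr4*, 6 for *Ccr10* and 5 for *Ccr9* in any library.

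Of 16 receptors 4 were tested, and none had an unadjusted p below 0.05 over all 8 libraries. *Cxcr4* measured 49.1, 18.3, 6.25 and 54.3 CPM in the control libraries and 66.2, 63.4, 46.2 and 69.3 CPM in the mutant ones. The 4 mutants were close together while the controls were spread, and only mutant 3 lay below controls 1 and 4. The fitted log2 difference was 0.94 (SE 0.56, adjusted p = 0.446), and 0.93 (SE 0.39, adjusted p = 0.321, unadjusted p below 0.05) with a term for library set. *Ccr1*, the receptor of *Ccl6* and *Ccl9*, measured 1.09, 0.482, 0.399 and 1.03 CPM in the control libraries and 0.791, 1.20, 0.975 and 1.92 CPM in the mutant ones, with a log2 fold change of 0.72 (SE 0.43, adjusted p = 0.448). *Ccr7*, which guides dendritic cells and T cells to lymph nodes, measured 3.68, 10.7, 0.817 and 2.22 CPM in the control libraries and 3.66, 4.72, 1.12 and 6.64 CPM in the mutant ones. It was highest in control 2, and its log2 fold change of -0.12 (SE 0.75) turned to 0.85 without that library. *Cxcr6*, found on T cells and NKT cells, had 1 to 21 counts per library, or 0.259, 0.130, 0.0190 and 0.191 CPM in controls and 0.271, 0.241, 0.0739 and 0.498 CPM in mutants (log2 fold change 0.85, SE 0.72). *Cxcr5*, the B cell follicle receptor, was below the filter with 2 to 7 counts in controls and 11 to 13 in mutants.

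**Figure D4:**
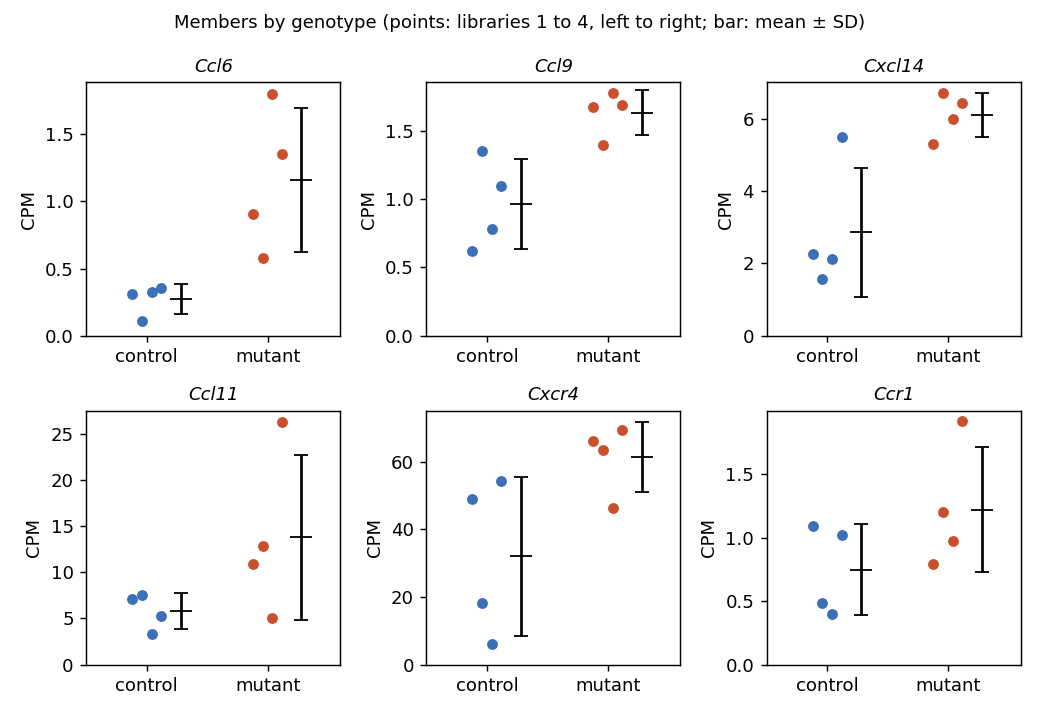
CPM of *Ccl6*, *Ccl9*, *Cxcl14*, *Ccl11*, *Cxcr4* and *Ccr1* in control (blue) and *Itgb1*-deleted (red) islets, with 4 libraries per group as points and mean ± SD as bars, each axis starting at 0. The groups are apart for *Ccl6* and *Ccl9* and overlap by 1 or more libraries for the other 4.

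The difference between genotypes depended on which libraries were compared, for these genes as for many others of the series. Within the 5 libraries under 50 M counts (mutants 1, 2 and 4 against controls 1 and 4), 28 of the 49 genes passed the filter and all 28 had a log2 fold change above 0 (50.4% of all genes), with a median of 1.02. At an unadjusted p below 0.05, 12 of the 28 were higher in mutants (12.6% of all genes) and 0 were lower (10.7% of all genes), while 0 passed an adjusted p of 0.05 (0.135% of all genes). The 12 were *Cxcl1*, *Cxcl2*, *Cxcl3*, *Cxcl5*, *Ccl2*, *Ccl7*, *Ccl11*, *Ccl6*, *Ccl9*, *Ccl19*, *Cxcr4* and *Cxcr5*. Their log2 fold changes ran from 0.35 (SE 0.07) for *Cxcr4*, with the smallest adjusted p (0.0974), to 1.92 (SE 0.61) for *Ccl7*. Of the 24 genes tested over all libraries, 12 had all 3 of these mutants above both controls (21.7% of all genes) and 0 had them all below (21.5% of all genes).

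Mutant 3 against controls 2 and 3, the libraries over 50 M counts, gave another picture and has no replicate of the mutant. There 8 of 27 genes that passed the filter had a log2 fold change above 0 (50.1% of all genes), with a median of -0.63, and the values ran from -7.86 for *Cxcl11* to 3.07 for *Ccl6*. *Ccl6*, *Ccl9*, *Cxcl14*, *Cxcr4*, *Cxcr5*, *Ccr1*, *Ccl25* and *Ccl27a* were above 0 in both sets of libraries. The difference between both sets was tested as an interaction over all 8 libraries, in which mutant 3, the only female mutant, is the whole mutant arm of the larger set and is assumed to vary like the other libraries. Such a difference was common in the whole series and not particular to these genes. Of the 24 genes, 6 had an unadjusted p below 0.05 (31.3% of all genes) and 3 an adjusted p below 0.05 (11.4% of all genes). These were *Ccl3* (difference in log2 fold change -4.29, SE 0.78, adjusted p = 0.0249), *Ccl4* (-5.42, SE 1.12, adjusted p = 0.0329) and *Cxcl2* (-5.09, SE 1.25, adjusted p = 0.0489). *Cxcl1*, *Cxcl10* and *Cxcr4* were the other 3, with adjusted p of 0.110 to 0.148. With a term for library set in place of the interaction, 4 of the 24 were higher at an unadjusted p below 0.05 (*Ccl6*, *Ccl9*, *Cxcl14* and *Cxcr4*; 8.65% of all genes) and 0 were lower (6.54% of all genes), with a median of 0.39 over the 24. With a term for sex 9 were higher at the same limit (*Ccl2*, *Ccl6*, *Ccl7*, *Ccl9*, *Ccl11*, *Cxcl3*, *Cxcl5*, *Cxcl14* and *Cxcr4*; 9.79% of all genes) and *Ccl4* was lower (9.44% of all genes), with adjusted p of 0.150 to 0.230 for the 10 from edgeR's test.

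**Figure D5:**
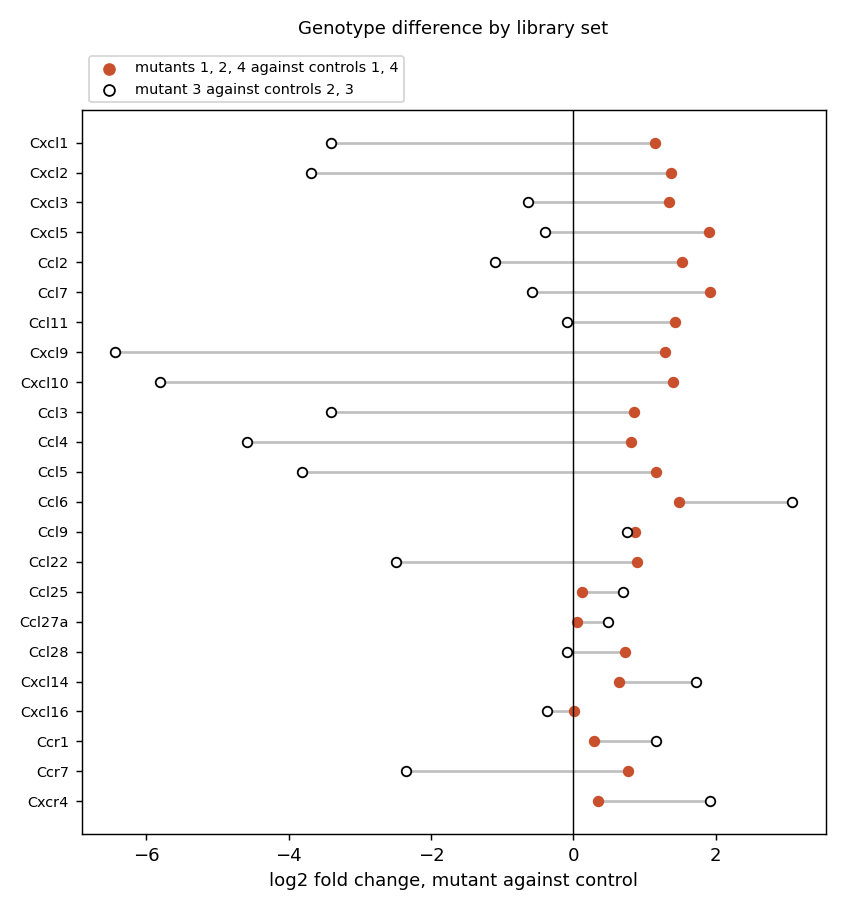
Log2 fold change of mutant against control (horizontal) for 23 tested genes (vertical), within the 5 libraries under 50 M counts (filled) and within the 3 over 50 M counts (open, 1 mutant library). All filled points lie right of 0, and open points of *Cxcl9* and *Cxcl10* lie furthest left while that of *Ccl6* lies furthest right; *Cxcr6* did not pass the filter in the 3 libraries.

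The other 25 genes were below the low count filter. *Ccl1*, *Ccl27b* and *Cxcr1* had 0 counts in every library. *Cxcl11* reached 411 counts in 1 library, as above. Lymphoid and dendritic cell ligands followed, with at most 26 counts for *Ccl19* (whose reads may be split with near-identical copies), 20 for *Ccl17*, 19 for *Cxcl13* and 12 for *Ccl20*. The monocyte attractants *Ccl8* and *Ccl12* reached 25 and 2 counts, and both *Ccl8* and *Ccl20* had their highest value in mutant 4. *Ccl24*, *Ccl26*, *Cxcl15* and *Cxcl17* reached 1 or 2 counts. Among receptors, *Ccr2* reached 24 counts and *Ccr4*, a receptor of regulatory and helper T cells, 12, both in mutant 4. *Ccr3*, *Ccr6*, *Ccr8*, *Ccr1l1* and *Cxcr3* reached 3 to 8 counts. With no low count filter 46 of the 49 genes were fitted over all 8 libraries. Of those below the filter, *Ccl8* (log2 fold change 2.96, SE 1.04), *Ccl20* (2.62, SE 0.95) and *Cxcr5* (1.22, SE 0.47) then had an unadjusted p below 0.05 (6.37% of all genes higher), with adjusted p of 0.363 to 0.371 from edgeR's test.

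Chemokine genes with other names were looked at next. Of 11 such ligands and receptors 7 were tested, and their median log2 fold change was 0.80. By an unadjusted p below 0.05, 3 of the 7 were higher (6.8% of all genes) and 1 was lower (7.19% of all genes). The 3 of smallest p were the scavenger receptors *Ackr3* (1.56, SE 0.50) and *Ackr2* (2.15, SE 0.74), which take up chemokines without G protein signalling, and *Cx3cl1* (-0.88, SE 0.31), the membrane-bound ligand of monocytes known as fractalkine. *Ackr3* measured 11.2, 5.47, 4.47 and 12.4 CPM in the control libraries and 27.9, 24.9, 7.68 and 38.5 CPM in the mutant ones, so that mutant 3 alone lay among the controls. *Pf4*, a platelet and macrophage chemokine, was the other one higher (1.97, SE 0.86).

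Of 18 genes that signal below the receptors 16 were in the table and 15 were tested. By an unadjusted p below 0.05, none was lower (7.19% of all genes) and 2 were higher (6.8% of all genes). These were *Arrb1*, a β-arrestin that silences activated receptors (log2 fold change 0.99, SE 0.31), and *Pik3cg*, the kinase driven by Gβγ (1.08, SE 0.40). *Lyn*, a Src family kinase, came next at 0.93 (SE 0.43). The median of the 15 was 0.11.

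Of 21 inducers of chemokines and NF-κB genes 19 were tested, 1 was higher and 0 were lower at an unadjusted p below 0.05, (6.8% and 7.19% of all genes), and the median was -0.11, against 0.50 within the 5 libraries under 50 M counts. *Tnfrsf1b*, a receptor of tumour necrosis factor, had the smallest p (log2 fold change 0.81, SE 0.30), followed by *Tnfrsf1a* (0.40, SE 0.19) and *Irf1*, an interferon-induced factor (-0.77, SE 0.38). *Il6*, a cytokine induced by the same signals, measured 44.3, 54.9, 4.26 and 40.5 CPM in the control libraries and 84.3, 71.2, 15.6 and 145 CPM in the mutant ones, an order of libraries close to that of *Ccl2* (log2 fold change 1.13, SE 0.77). *Il17a* and *Ifng* had 1 to 3 counts in all.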

How the data were processed

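The authors trimmed reads with Trimmomatic and FASTP, aligned them with STAR to mm10 (GRCm38 in the submitters' processing notes) and obtained counts from featureCounts under default settings, which ignore strand. The deposited raw counts of 8 libraries were used. A deposited table of the authors' own comparison, with CPM, fold changes and p-values, was not used. Depth was 35.1 to 67.6 M counts per library. Genes that passed edgeR's low count filter (15233 of 24091) were compared in R 4.3.3 with edgeR 4.0.16 (quasi-likelihood test) after TMM scaling, with genotype alone, since the study adjusted for batch in its model but does not name the batches, and Benjamini-Hochberg adjustment. Standard errors are the size of the log2 fold change divided by the square root of F. On simulated counts of 15233 genes the test recovered 90% of genes changed 4-fold and 35% of those changed 2-fold. The changed genes were drawn from those with a mean above 5 CPM. The shares therefore do not apply to genes below that level, such as *Ccl3*, *Ccl4*, *Ccl6*, *Ccl9* and *Cxcl14*. Alternatives were DESeq2 1.42.0, the likelihood ratio test, other scalings and filters, terms for library set, sex and replicate number, and leaving out libraries. An older setting of edgeR's test, overlap within 5 libraries and the mean RPKM without control 2 were added after seeing the data. No pair of libraries agreed within counting noise. Of all symbols, 26 had become dates. Chemokine genes, lists and the interaction test were chosen with earlier results of these data known. A few items are not reported here. All other tested genes of the 2 families are named, with values per library for those with an unadjusted p below 0.05 in the 3 fits, the most abundant of each class, *Ccl3* and *Ccl4*, and for other lists the 3 of smallest p. *Il6*, *Pf4* and *Lck* were named after their values were seen.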

Additional observations from a re-analysis of the deposited data

Results flagged for a closer look

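Control 2 stood far from the other 3 controls for *Cxcl10* (312 CPM) and *Cxcl9* (5.51 CPM), by Dixon's gap test at the 95% level. A total of 48 groups of 4 libraries were examined in this way, and 2 were flagged. By chance alone about 1 in 20, or 2.4, would be marked.

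The genotype difference of *Ccl3*, *Ccl4* and *Cxcl2* passed a test of its difference between the 3 libraries over 50 M counts and the other 5, as did 11.4% of all genes, with differences in log2 fold change of -4.29, -5.42 and -5.09 and adjusted p of 0.0249, 0.0329 and 0.0489 from edgeR's quasi-likelihood test of the interaction. The larger set holds 1 mutant library, mutant 3, assumed to vary like the others. For *Ccl3* and *Ccl4* mutant 3 (0.591 and 0.340 CPM) lay near the other mutants, while controls 2 and 3 were high (7.64 and 5.11 CPM, and 12.3 and 4.28 CPM). For *Cxcl2* mutant 3 was the lowest of all libraries (1.40 CPM).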

How the results depend on the processing

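The count of genes past an adjusted p of 0.05 and a fold change of 2 was 0 under every alternative with at least 2 libraries in each group but DESeq2 (2) and the likelihood ratio test (1). Genes higher at an unadjusted p below 0.05 numbered 4 of 24 (6.8% of all genes). They numbered 8 of 46 with no low count filter (6.37%) and 12 of 28 within the 5 libraries (12.6%). Of the same 24 they numbered 9 with a term for sex (9.79%) and 10 with a replicate block (10.5%). Leaving out 1 library gave 2 to 7, with 2 without control 3 (4.96%) or mutant 4 (3.78%) and 7 without mutant 3 (8.95%). Genes lower numbered 2 (7.19%), and 1 with total counts (3.56%) or a term for sex (9.44%). They numbered 0 with the replicate block (7.76%), the term for library set (6.54%) or the 5 libraries (10.7%). A minimum count of 50 also gave 0 (7.35%), but *Ccl3* and *Ccl4* were not among the 18 genes that passed this filter. Leaving out 1 library gave 0 to 2, with 0 without control 2 (4.07%) and 1 without control 3 or any 1 mutant (3.91% to 8.2%). Groups did not overlap for 2 genes (4.4%), for 2 to 9 without 1 library (9 without mutant 3, 11.1%) and for 12 within the 5 libraries (21.7%). The interaction had 6 genes at an unadjusted (31.3%) and 3 at an adjusted p below 0.05 (11.4%), and 10 (26.4%) and 5 (12.9%) by the likelihood ratio test. Same-numbered libraries deviated together in 3 of 4 pairs (correlations -0.01 to 0.46), mutants 1, 3 and 4 went best with the control of their number and mutant 2 with control 4, so the numbers were not taken to pair all libraries. Higher with the block were *Ccl2*, *Ccl6*, *Ccl7*, *Ccl9*, *Ccl11*, *Ccl28*, *Cxcl3*, *Cxcl5*, *Cxcl14* and *Cxcr4* (adjusted p 0.119 to 0.269, edgeR). The block turned *Ccr7* to 0.18.

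Log2 fold changes of single genes changed sign as follows. In the 3 libraries over 50 M counts *Ccl11* was at -0.087, *Ccl2* at -1.10, *Ccl22* at -2.49, *Ccl28* at -0.090, *Ccl5* at -3.81, *Ccl7* at -0.58, *Cxcl1* at -3.40, *Cxcl2* at -3.69, *Cxcl3* at -0.63 and *Cxcl5* at -0.40. In the 5 libraries *Ccl3* was at 0.86, *Ccl4* at 0.81, *Ccr7* at 0.76, *Cxcl10* at 1.40, *Cxcl16* at 0.010 and *Cxcl9* at 1.29. With the term for library set *Ccl22* was at -0.058, *Ccl5* at -0.067, *Cxcl1* at -0.021 and *Cxcl10* at 0.0059. With total counts *Ccr7* was at 0.045 and *Cxcl16* at 0.0035. Leaving out 1 library gave -0.014 to 0.42 for *Ccl27a*, -0.50 to 0.85 for *Ccr7*, -2.58 to 1.37 for *Cxcl10*, -0.36 to 0.20 for *Cxcl16* and -1.69 to 1.49 for *Cxcl9*, with the sign turned without control 2 and, for *Ccr7*, also without mutant 3. It gave -0.68 to 1.30 for *Ccl5* (below 0 without control 3 or mutant 4) and -0.19 to 1.03 for *Ccl22* (below 0 without mutant 2). Without control 4 *Ccl28* moved from 1.09 to 1.83. For all these the cause was not tested. Depth limits what can be said of the genes below the filter.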
